A study of Mus musculus with 4 samples.

Results

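Expression of neurotrophins and their receptors was compared between WT and Lsd1 KI hippocampus for 6 genes chosen by name: the ligands Bdnf and Ntf3, the Trk receptors Ntrk2 and Ntrk3, the p75 receptor gene Ngfr and the sortilin gene Sort1. All 6 were found by their Ensembl gene IDs among the 26328 genes listed in at least 1 sample. The poly(A) RNA of hippocampi from male C57BL/6 mice was sequenced in 4 samples, 2 labelled wild-type and 2 labelled LSD1 knock-in. In Lsd1 KI (SA/SA) mice every cell carries LSD1 with alanine in place of the serine that PKCα phosphorylates, and the WT mice are littermates without this change. The age of the mice used for RNA, their treatment before tissue collection and whether tissue was pooled are not given in the sources used here, and the labels do not say that samples of a group came from separate animals. The p-values measure only the spread between these samples.

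Neurotrophins are secreted growth factors that are made as longer precursors and cut to their mature form. Mature BDNF acts mainly through the receptor tyrosine kinase TrkB (Ntrk2), and NT-3 (Ntf3) through TrkC (Ntrk3), which signal through Ras and MAP kinases, PI3-kinase and phospholipase C gamma. The precursors bind p75 (Ngfr) together with sortilin (Sort1), a sorting receptor that also carries proBDNF inside the cell. In the hippocampus BDNF is made by excitatory neurons in response to activity and is required for long-lasting synaptic potentiation, and Ntf3 is best known from dentate granule cells.

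The mean levels of the 6 genes in KI hippocampus were 0.875 to 1.05 times those in WT. In the test for a difference 0 of the 6 passed, and so did 0 of all 18436 genes tested. Values are RPKM, a read density that is divided by the exon length of the gene and by the mapped reads of the sample. Levels of different genes can be compared only as far as the exon lengths used hold, and these are not known for every member. In each of the 4 samples the order from high to low was Sort1, Ntrk2, Ntrk3, Bdnf, Ntf3 and Ngfr, and each pair of neighbours in this order was separated in all samples. Bdnf, at 7.02 RPKM or more, lay above Ntf3, which reached at most 4.84 RPKM. Sort1 ranked above 98.1% of listed genes or more in every sample, while Ngfr ranked above no more than 33.9%. The plot of RPKM by sample shows the spread of levels beside the differences between genotypes.

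**Figure D1:**
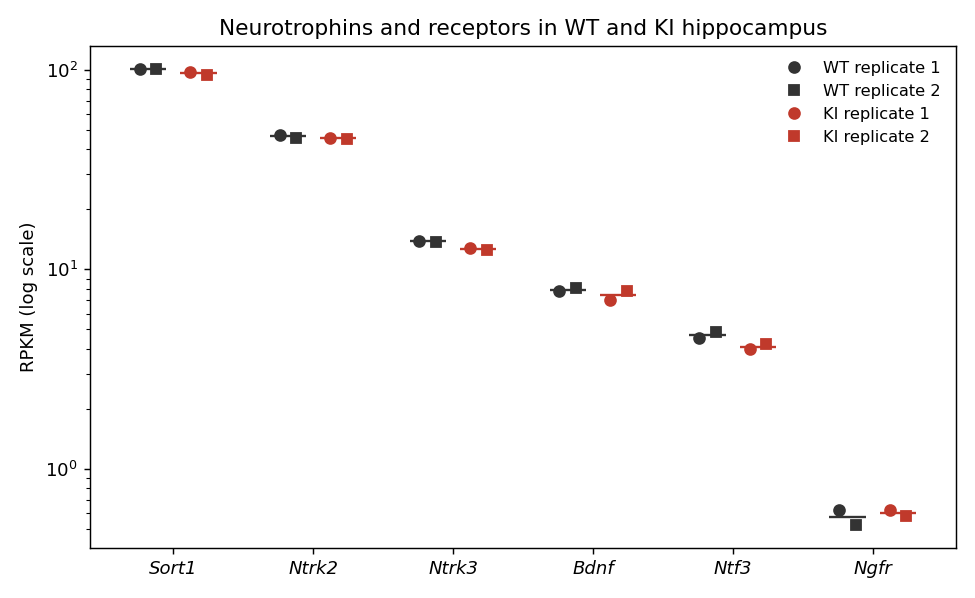
RPKM on a log scale for the 6 genes in each sample (black, WT; red, KI; circles, replicate 1; squares, replicate 2), with a bar at each group mean. The genes keep 1 order in all 4 samples, from Sort1 near 101 RPKM in WT down to Ngfr near 0.577 RPKM.

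Samples differed in depth. The whole-read steps of the RPKM values gave 13414957 and 8827967 mapped reads for WT replicates 1 and 2, and 14381252 and 14949756 for KI replicates 1 and 2. These totals are estimates: with them and the GENCODE exon lengths, 66.3% of the 18675 genes under 500 reads came out at whole reads in every sample. Where the length used for a gene is another one, its reads are those of the shortest length that gives whole reads, and a multiple of them cannot be told apart. Kdm1a, the gene that carries the knock-in, was at 11.6 and 11.2 RPKM in WT and 10.97 and 11.17 RPKM in KI. Its level does not check the labels, because the knock-in replaces an amino acid. All 7 markers of hippocampal excitatory neurons were detected, with summed levels of 1256 to 1257 RPKM in WT and 1197 to 1207 RPKM in KI. In both KI samples 4 of the 7 were lower and 0 were higher, against 18.1% and 24.0% of all genes tested. Markers of basal forebrain cholinergic neurons, a cell type with strong Ngfr expression, summed to 0.0864 to 0.215 RPKM in WT and 0.322 to 0.397 RPKM in KI. Slc18a3 was not listed in any sample. Most of each sum was Slc5a7, at 0.0864 and 0.175 RPKM in WT and at 0.322 and 0.271 RPKM in KI. Chat was at 0 in WT replicate 1, and Lhx8 was at 0 in every sample except KI replicate 2. These values lie near the floor, and a difference between the groups was not tested.

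Bdnf (ENSMUSG00000048482, chromosome 2, 109674700 to 109727007 on the plus strand, GRCm38) has 11 annotated transcripts that start at several promoters and share 1 coding exon, and the gene value sums them. The RefSeq table holds 7 start windows for Bdnf, 2 for Ntf3, 1 for Ntrk2 and 1 for Ngfr (GRCm38.p6). The windows of 250 bases before the start were searched on both strands for the cAMP response element TGACGTCA, its core TGACG, the E-box CACGTG, the GC box GGGCGG and the parts TTCAGCACC and GGACAGCGC of the element bound by REST, a repressor that works with LSD1. The core is contained in the full cAMP response element. A window each of both ligand genes is shown because promoters of Bdnf answer to neuronal activity and Ntf3 had the widest difference between genotypes. The Bdnf window shown is the only one of that gene with the core, and the Ntf3 window the only one of that gene with an E-box. These matches are thus a description only. Capitals mark a match, and both windows are printed 5′ to 3′ on the strand of the gene.
Bdnf, window 3 of 7, chr2:109692186-109692435, plus strand: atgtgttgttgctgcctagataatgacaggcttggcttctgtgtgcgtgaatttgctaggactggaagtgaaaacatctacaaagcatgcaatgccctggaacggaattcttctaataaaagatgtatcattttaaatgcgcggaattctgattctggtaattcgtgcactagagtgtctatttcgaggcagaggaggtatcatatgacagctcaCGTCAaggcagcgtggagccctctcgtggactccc
Ntf3, window 1 of 2, chr6:126166745-126166994, minus strand: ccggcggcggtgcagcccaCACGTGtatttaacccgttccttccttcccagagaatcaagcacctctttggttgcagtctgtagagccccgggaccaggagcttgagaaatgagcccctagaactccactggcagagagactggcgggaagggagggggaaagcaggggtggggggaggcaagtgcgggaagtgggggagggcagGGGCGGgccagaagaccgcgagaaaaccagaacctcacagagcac

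In the Bdnf window the core of the cAMP response element stood 35 bases before the start, on the opposite strand. It was in 1 of the 7 Bdnf windows and in 17.8% of all 32851 windows. The Ntf3 window held an E-box, which 6.02% of all windows hold, and a GC box, which 32.7% hold. Of the windows not shown, window 2 of Bdnf held 2 GC boxes, window 4 of Bdnf held 1 and window 2 of Ntf3 held 1. The Ngfr window held 4 GC boxes, and the Ntrk2 window held none of the motifs. Neither part of the REST element was in a window of these genes. In all windows the parts were found in 0.301% and 0.304%, and a lack of these letters says nothing about binding elsewhere.

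Bdnf was at 7.79 and 8.05 RPKM in WT replicates 1 and 2 and at 7.02 and 7.81 RPKM in KI replicates 1 and 2. KI replicate 1 was the lowest of the 4, and KI replicate 2 lay between the WT samples, so the groups overlapped. The means were 7.92 ± 0.18 RPKM for WT against 7.42 ± 0.56 RPKM for KI (SD, n = 2 each). The reads behind the 4 values, in the same order of samples, numbered 650, 442, 628 and 726. The difference, KI minus WT on the log2(RPKM + 1) scale, was -0.09 with a 95% interval from -0.29 to 0.12 (adjusted p = 0.762, limma with Benjamini-Hochberg adjustment). Without KI replicate 1 it was -0.02.

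Ntf3 (ENSMUSG00000049107, chromosome 6, 126101412 to 126166910, minus strand), which encodes NT-3, was at 4.54 and 4.84 RPKM in WT and at 3.996 and 4.22 RPKM in KI. Both KI values lay below both WT values. With means of 4.69 ± 0.21 and 4.11 ± 0.16 RPKM (SD, n = 2 each) the ratio of KI to WT was 0.875, the furthest from 1 among the 6 genes. The log2 difference was -0.16 (95% interval -0.37 to 0.05, adjusted p = 0.587 from limma). The 4 values came from 87, 61, 82 and 90 reads, where counting alone gives an error of 12.8% in the shallowest sample.

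By RPKM the Trk receptors stood above these ligands. Ntrk2 (ENSMUSG00000055254, chromosome 13, 58806569 to 59133970, plus strand), which encodes TrkB, was at 47.2 and 45.7 RPKM in WT and at 45.6 and 45.0 RPKM in KI. The groups did not overlap, but the gap between the nearest WT and KI samples was 0.2396% of the WT mean, less than the counting error of 1.34% of the shallowest sample. The log2 difference was -0.04 (95% interval -0.16 to 0.08, adjusted p = 0.842 from limma), which on the RPKM + 1 scale is a fold between 0.897 and 1.06. The full-length kinase and the truncated form found mainly in astrocytes are 2 of the products of this gene, and a gene value cannot tell them apart.

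Ntrk3 (ENSMUSG00000059146, chromosome 7, 78175959 to 78738012, minus strand), which encodes TrkC, was at 13.9 and 13.8 RPKM in WT and at 12.8 and 12.5 RPKM in KI. The WT samples were close together, and both KI samples were lower by a gap of 7.18% of the WT mean. The means were 13.8 ± 0.06 and 12.6 ± 0.21 RPKM (SD, n = 2 each), a ratio of 0.914. Its log2 difference of -0.12 (standard error 0.05, 95% interval -0.26 to 0.02) gave an unadjusted p of 0.0806 and an adjusted p of 0.556 in limma, and the other members had larger p-values.

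Ngfr and Sort1 encode the receptors that together bind the precursors. Ngfr (ENSMUSG00000000120, chromosome 11, 95568818 to 95587735, minus strand) was at 0.627 and 0.526 RPKM in WT and at 0.626 and 0.582 RPKM in KI. The groups overlapped, and the values came from only 29, 16, 31 and 30 reads. The log2 difference was 0.03 with a 95% interval from -0.31 to 0.36 (adjusted p = 0.970 from limma), the widest of the 6, and it was -0.03 with quantile normalization, so no direction can be given.

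Sort1 (ENSMUSG00000068747, chromosome 3, 108284082 to 108361511, plus strand) was at 100.97 and 101.02 RPKM in WT and at 97.4 and 94.5 RPKM in KI. The WT samples were almost equal, and both KI samples were lower. The ratio of KI to WT was 0.9499 and the log2 difference -0.07 (95% interval -0.19 to 0.04, adjusted p = 0.636 from limma), on 6742 to 10680 reads per sample.

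In all, 5 of the 6 genes had a log2 difference below 0, as did 45.6% of the 18436 genes tested. Both KI values lay below both WT values in 4 of the 6 (Ntf3, Ntrk2, Ntrk3 and Sort1), against 18.1% of all genes tested, and above them in 0, against 24.0%. The groups thus did not overlap in 4 of the 6, against 42.2% of all genes tested in either direction. For each of these 4 genes the exact permutation p (two-sided) was 0.333, the smallest that 2 against 2 samples allow. With an adjusted p under 0.1 and at least 1.2-fold in limma, 0 of the 6 were called, against 0.0% of all genes. The authors' edgeR test of these samples did call genes, so this 0 does not show that the genotypes are alike. At an unadjusted p under 0.05 the count was also 0 of 6, against 9.62% of all genes. The median log2 difference was -0.08 over the 6 genes and 0.01 over all genes tested. The members are named genes and not replicates of the genotype, so these counts describe them and do not test the group.

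**Figure D2:**
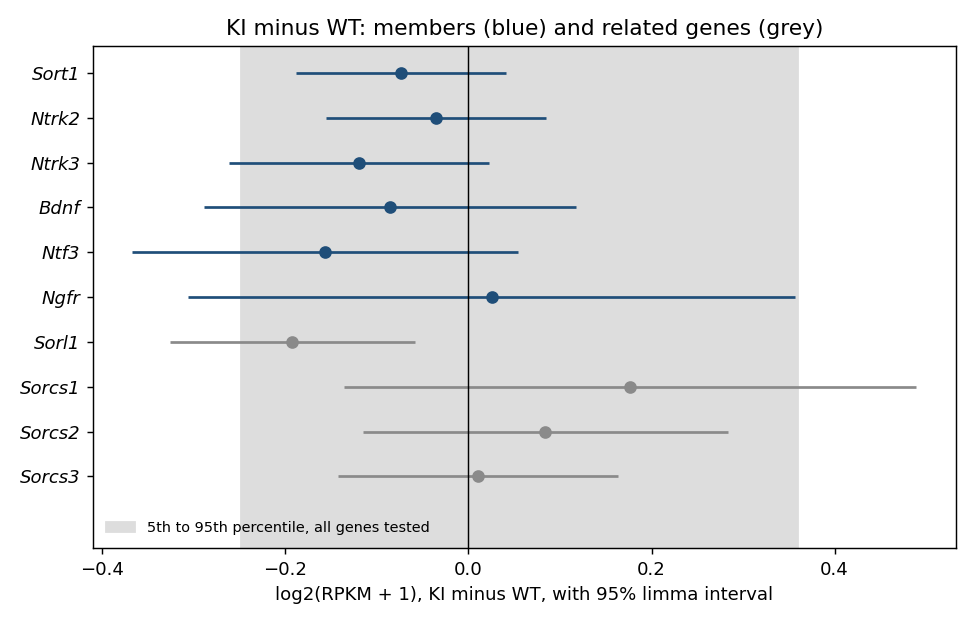
Difference KI minus WT on the log2(RPKM + 1) scale with its 95% limma interval for the 6 genes (blue) and 4 related sorting receptor genes (grey), with the 5th to 95th percentile of all genes tested shaded. All 6 intervals in blue include 0, and the blue points lie between -0.16 and 0.03.

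Ligand and receptor levels were also set against each other within each sample. The size of such a ratio depends on the exon lengths used for both genes, which are the same in all samples. Ntrk2 was 5.68 to 6.06 times the level of Bdnf in WT and 5.76 to 6.49 times in KI. Ntrk3 was 2.84 to 3.05 times the level of Ntf3 in WT and 2.96 to 3.20 times in KI. These ranges overlapped. The ratio of Ntrk2 to Ntrk3 was 3.32 and 3.41 in WT and 3.57 and 3.60 in KI, and the ratio of Bdnf to Ntf3 was 1.66 and 1.71 in WT and 1.76 and 1.85 in KI. Both of these ratios were higher in both KI samples, and Ntrk3 and Ntf3, the genes they are divided by, were lower in both. Sort1 exceeded Ngfr by 161-fold and 192-fold in WT and by 156-fold and 162-fold in KI, a ratio limited by the few Ngfr reads.

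Over the 4 samples, the profiles of Ntrk3 and Sort1 were the most alike of the 15 pairs of members, with a root mean square difference of 0.0238 on the log2 scale after each gene was centred on its mean. The least alike were Ntf3 and Ngfr, at 0.114. Among the 16080 genes with a mean of at least 1 RPKM, the nearest to Bdnf was Tbc1d22a (0.00595), the nearest to Ntf3 was Dnajc27 (0.00393) and the nearest to Ntrk2 was Stam (0.00257). For Ntrk3 it was Sun1 (0.00311), for Sort1 Wdr73 (0.00151) and for Ngfr Lnx1 (0.00419). With 4 samples and 16080 genes, such near matches are a description only.

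Ntf5, which encodes the TrkB ligand neurotrophin-4, was covered by 4, 0, 6 and 5 reads in the same order of samples, and the 0 allows up to 0.173 RPKM. It was not tested, and this limit covers counting error only.

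The sorting receptors related to sortilin did not share 1 direction. Sorl1, which encodes SORLA, was at 47.3 and 46.9 RPKM in WT and at 40.0 and 42.3 RPKM in KI. It was lower in both KI samples, with a log2 difference of -0.19 (95% interval -0.33 to -0.06), an unadjusted p of 0.0149 and an adjusted p of 0.436 from limma. Sorcs1 was at 2.32 and 1.93 RPKM in WT and at 2.73 and 2.34 RPKM in KI (log2 difference 0.18, adjusted p = 0.673 from limma). Sorcs2, whose product binds proBDNF with p75, was at 8.14 and 8.31 RPKM in WT and at 9.26 and 8.32 RPKM in KI (log2 difference 0.08, adjusted p = 0.762 from limma). Sorcs3 averaged 9.57 ± 0.14 RPKM in WT against 9.65 ± 0.03 RPKM in KI (SD, n = 2 each).

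The remaining genes of the pathway were taken as fixed lists. In limma, 0 genes of any list passed an adjusted p under 0.1 with 1.2-fold, against 0.0% of all genes tested. Of 15 genes of precursor processing, 10 were tested, and 0 of them had an unadjusted p under 0.05, against 9.62% of all genes tested. The median log2 difference was -0.03. The lowest differences were those of the convertases Pcsk5 (-0.19, from 1.90 to 1.54 RPKM) and Pcsk2 (-0.11, from 38.3 to 35.4 RPKM), and the highest those of Plat (0.06), which encodes tissue plasminogen activator, and Pcsk6 (0.03). Mmp3 and Mmp7 were not listed in any sample. Furin, a main protease for the precursors, averaged 4.36 RPKM in WT against 4.11 RPKM in KI (log2 difference -0.07).

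All 24 adaptors of Trk receptors were tested, again with 0 at an unadjusted p under 0.05, against 9.62% of all genes tested. Their median log2 difference was -0.01. Irs2 had the lowest difference (-0.20, from 11.5 to 9.88 RPKM), followed by Plcg2 (-0.16). Shc1, an adaptor that binds active Trk receptors, had the highest (0.18, from 1.66 to 2.01 RPKM), followed by Plcg1 (0.08), which encodes phospholipase C gamma.

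Of 28 downstream GTPases and kinases, all tested, 1 was higher and 3 were lower in KI at an unadjusted p under 0.05, against 6.3% and 3.33% of all genes. Map2k5 and Mapk7 encode the kinases MEK5 and ERK5, which follow each other in 1 cascade, and their differences had opposite signs. Map2k5 was at 13.9 and 13.7 RPKM in WT and at 11.6 and 11.9 RPKM in KI (log2 difference -0.21, unadjusted p = 0.0134, adjusted p = 0.435 from limma). Mapk7 was at 7.57 and 7.32 RPKM in WT and at 8.51 and 8.60 RPKM in KI (log2 difference 0.18, adjusted p = 0.497 from limma). Rps6ka5, which encodes the CREB kinase MSK1, had a log2 difference of -0.22 (5.04 to 4.19 RPKM), and Pik3r1, a PI3-kinase subunit, one of 0.13 (13.57 to 15.01 RPKM). The median of the list was -0.02.

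Among 15 partners of p75, 0 had an unadjusted p under 0.05, against 9.62% of all genes tested, and the median was 0.03. Ripk2, a kinase that p75 recruits, had the highest log2 difference (0.25, 2.23 to 2.82 RPKM), then Zfp110 (0.15). Ndn, which encodes necdin, had the lowest (-0.18, 52.6 to 46.5 RPKM), then Irak1 (-0.09).

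**Figure D3:**
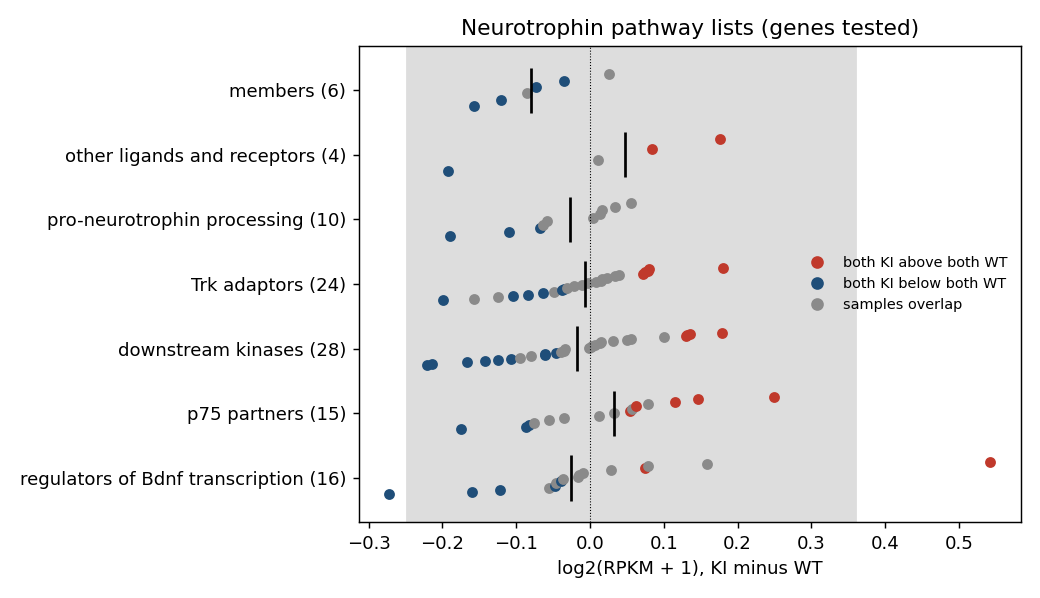
Log2 difference KI minus WT of each tested gene in 7 lists (number tested in brackets), with the median of each list as a black bar and the 5th to 95th percentile of all genes tested shaded. Red and blue points are genes whose KI samples both lay above or both below the WT samples, and the medians lie between -0.08 and 0.05.

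Of 16 genes that regulate Bdnf transcription, all tested, 1 was higher and 2 were lower at an unadjusted p under 0.05, against 6.3% and 3.33% of all genes, and the median log2 difference was -0.03. Npas4, an activity-induced transcription factor that binds Bdnf promoters, was at 4.87 and 3.46 RPKM in WT and at 6.01 and 6.92 RPKM in KI. Both KI samples were higher, with a log2 difference of 0.54 (95% interval 0.12 to 0.96, unadjusted p = 0.0218, adjusted p = 0.476 from limma), while Bdnf in the same samples had a log2 difference of -0.09. Bhlhe40, a repressor of Bdnf transcription, was at 39.3 and 39.2 RPKM in WT and at 30.4 and 34.4 RPKM in KI (log2 difference -0.27, adjusted p = 0.436 from limma). Crtc1, a coactivator of CREB, was at 28.2 and 29.0 RPKM in WT and at 25.7 and 25.2 RPKM in KI (log2 difference -0.16, adjusted p = 0.482 from limma), and Mef2c had a log2 difference of 0.16 with overlapping samples. Creb1 averaged 6.35 RPKM in WT against 6.26 RPKM in KI. Rest, which encodes the repressor that recruits LSD1, was at 1.06 ± 0.17 and 1.17 ± 0.02 RPKM (SD, n = 2 each).

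The summed markers of some cell types were lower or higher in both KI samples, and Bdnf, Ntf3 and the receptors are expressed unevenly among these cells. In bulk tissue, fewer cells of a type and less RNA per cell cannot be told apart. Of all genes tested, 24.0% were higher and 18.1% lower in both KI samples, the shares to set beside the marker counts. The summed level of 5 dentate granule cell markers was 94.8 to 95.6 RPKM in WT and 62.9 and 79.3 RPKM in KI replicates 1 and 2, and 4 of the 5 were lower in both KI samples. Prox1, the transcription factor that marks these cells, was at 17.3 and 16.9 RPKM in WT and at 10.2 and 13.1 RPKM in KI. Of the KI samples, replicate 1 was the lower one for the granule cell sum, for Bdnf and for Ntf3, and replicate 2 was the lower one for Ntrk2, Ntrk3, Ngfr and Sort1. For any gene 1 of the KI samples is the lower one, and a link to the granule cells was not tested. The sum of 4 CA3 pyramidal cell markers was 42.4 RPKM in both WT samples and 45.3 to 48.1 RPKM in KI, with 2 of the 4 higher and 1 lower in both KI samples. Bok, the most abundant of them, was at 26.3 and 26.1 RPKM in WT and at 27.9 and 34.3 RPKM in KI, while Iyd was at 3.86 and 3.56 RPKM in WT and at 3.13 and 2.31 RPKM in KI.

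The summed level of 6 markers of astrocytes, cells rich in truncated TrkB, was 429 to 438 RPKM in WT and 442 to 447 RPKM in KI. In both KI samples 3 of the 6 were higher and 1 was lower, against 24.0% and 18.1% of all genes tested. The lower one was Aqp4, which encodes the water channel aquaporin-4, at 29.0 and 30.5 RPKM in WT and at 25.7 and 27.1 RPKM in KI. For 6 neocortex and thalamus markers the summed level was 33.6 to 33.8 RPKM in WT and 39.8 to 44.7 RPKM in KI, with 4 of the 6 higher and 1 lower in both KI samples. Choroid plexus markers summed to 60.1 RPKM in KI replicate 1 and to 14.0 to 19.7 RPKM in the other samples, and Ttr, the choroid plexus transport protein gene, was at 51.3 RPKM in that sample. Sums of interneuron markers (312 to 337 RPKM), oligodendrocyte lineage markers (600.5 to 787 RPKM), mural and endothelial markers (55.7 to 61.0 RPKM) and meningeal fibroblast markers (7.41 to 15.4 RPKM) overlapped between the groups. An overlapping sum can hide differences of single markers. Of the 5 interneuron markers, 2 were higher and 1 was lower in both KI samples. The part of cell composition in the members' values was not tested.

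**Figure D4:**
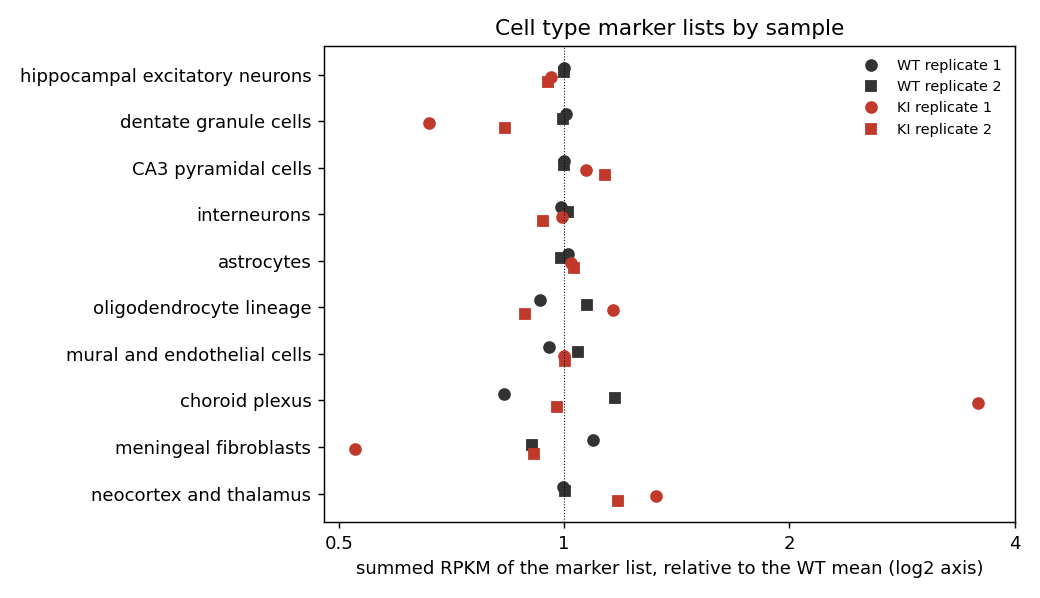
Summed RPKM of each cell type marker list in each sample, relative to the WT mean of the list, on a log2 axis. The dentate granule cell list stands at 0.661 and 0.834 of the WT mean in KI replicates 1 and 2, and the choroid plexus list at 3.57 in KI replicate 1.

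The differences of the 6 genes were also computed under each alternative setting. For 5 of them the sign did not change under any of 11 settings, and that of Ngfr changed under 2 of 10. The changed filters, the fit without the trend and the replicate block cannot alter a difference. For Ntf3, Ntrk2, Ntrk3 and Sort1, with both KI values below both WT values, leaving out a sample cannot turn the sign. The sign counts thus include settings whose outcome was fixed in advance. For Ntrk3 the log2 difference ran from -0.14 to -0.10, for Ntf3 from -0.19 to -0.12 and for Sort1 from -0.09 to -0.05. Ntrk2 ran from -0.06 to -0.01 and Bdnf from -0.15 to -0.02, with the ends of both ranges set by which sample was left out.

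**Figure D5:**
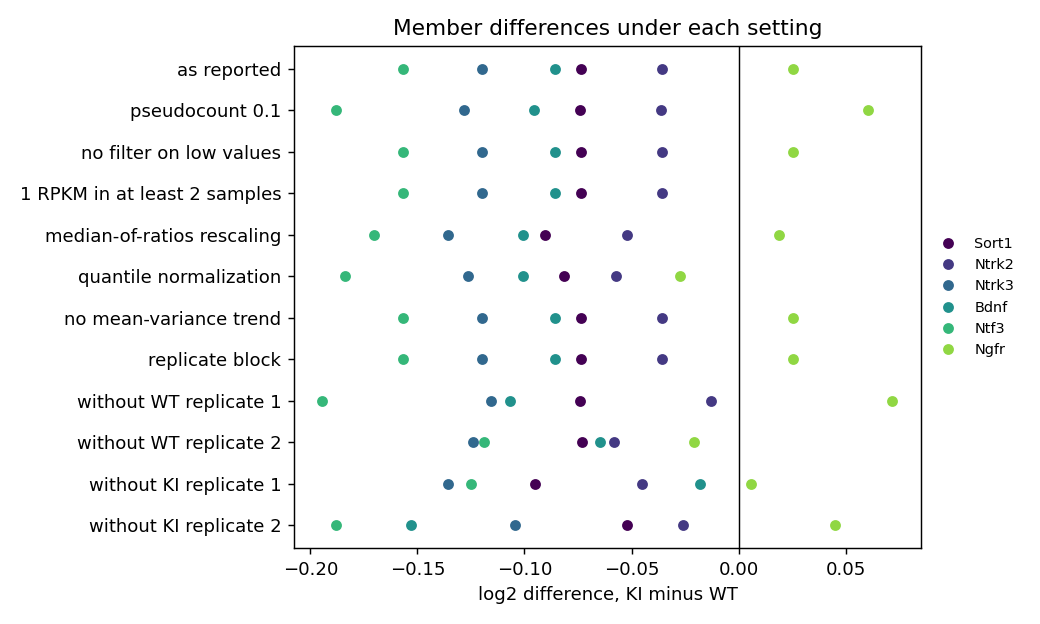
Log2 difference KI minus WT of the 6 genes (colours) as reported and under each alternative, with 1 line per setting. Ngfr crosses 0 with quantile normalization and without WT replicate 2, and the other 5 genes stay below 0 in every setting shown. The changed filters, the fit without the trend and the replicate block cannot alter a difference.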

How the data were processed

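Read pairs were sequenced from hippocampal poly(A) RNA, in 2 samples per genotype. The authors used GSNAP and the mm10 genome, discarded pairs that were not unique and properly mapped, and deposited RPKM per gene of Ensembl release 74. The counting tool is not given in the sources used here. A gene absent from a sample was set to 0.

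Groups were compared with limma 3.58.1 (R 4.3.3, mean-variance trend) on log2(RPKM + 1). The 18436 genes that reached 0.5 RPKM in 2 or more samples were tested, with Benjamini-Hochberg adjustment over all of them. This scale understates differences of low genes. A call needs an adjusted p under 0.1 and 1.2-fold. The authors used edgeR, which needs counts, and reported many genes higher or lower in KI at the same adjusted threshold and 1.5-fold. Several of the higher ones were also higher by qRT-PCR. The lack of calls is stated only for limma on RPKM in these samples. No test on counts was run, and the cause of the difference from the authors' result was not tested. The code was tested on simulated data, but the check on changed genes found used more samples per group than here. It does not show how many changes this design can find. Reads were derived from the whole-read steps (whole within 0.001 reads) and served only to state precision. For Ntrk3 they were not fixed and are not given. Gene positions come from GENCODE M21 (GRCm38, the build of mm10). Windows come from RefSeq, with no entry for Ntrk3 or Sort1. No protein sequence was used here.

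The members, lists and tests were chosen with earlier results of these data known. The genes named are the members, other ligands and receptors (not every one is reported here), and per list the 2 highest and 2 lowest differences. Kdm1a, Furin, Creb1, Rest, Prox1, Ttr, Bok, Iyd and Aqp4 were added after their values were seen. Python 3.11.15 with pandas 2.3.3 was used.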

Additional observations from a re-analysis of the deposited data

How the results depend on the processing

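The count of the 6 genes called was 0 under all 13 alternatives, as was the count of pathway list genes called. The alternatives of 1.5-fold and of an adjusted p under 0.05 only tighten the call on the same limma fit. The smallest adjusted p in that fit was 0.197, so their 0 was fixed in advance for any set of genes. Over all genes tested, the count was 0 as reported and under 12 alternatives, and 20 without the mean-variance trend (17 of them higher in KI). The cause was not tested. The difference of Ngfr was -0.0273 with quantile normalization and ran from -0.0210 to 0.0718 as each sample was left out, and it could not be had with a minimum of 1 RPKM, which Ngfr does not reach. With samples left out in turn the other differences ran from -0.15 to -0.02 (Bdnf), -0.19 to -0.12 (Ntf3), -0.06 to -0.01 (Ntrk2), -0.14 to -0.10 (Ntrk3) and -0.09 to -0.05 (Sort1). WT and KI share replicate numbers in the labels. In the fit with this replicate block 0 genes were called. The differences were the same as without it (Bdnf -0.09, Ntf3 -0.16), which a balanced block makes certain. Deviations of samples with the same number had a correlation of -0.0249 across genes, so the number is not taken to pair the samples. The depth, lowest in WT replicate 2, limits Ngfr most, where 16 reads give a counting error of 25%.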
